A study of Mus musculus with 28 samples.

Results

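The 10 genes of MHC class I antigen processing described here are B2m, H2-K1, H2-D1, Tap1, Tap2, Tapbp, Psmb8, Psmb9, Psmb10 and Psme1. They were taken by name from a count table that lists 54532 genes, of which 30159 had at least 1 count. RNA was sequenced from 28 cultures of bone marrow-derived macrophages (BMDM), which the study's methods describe as grown in M-CSF from marrow of C57/B6JB mice. Control cultures received PBS, VWF cultures received plasma-derived von Willebrand factor (pd-VWF, 10 μg/ml) and LPS cultures received bacterial lipopolysaccharide (100 ng/ml), each for 3.5 h or 16 h, and the fresh medium of all groups held calcium chloride. There were 5 control, 5 VWF and 4 LPS cultures at each time. The labels name biological replicates and do not say how many mice they came from, so the p-values measure the spread between these cultures. No genotype other than that strain is given.

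MHC class I molecules display short peptides from a cell's own proteins to CD8+ T cells. Each consists of a heavy chain, in C57BL/6 mice encoded by H2-K1 and H2-D1, bound to the light chain β2-microglobulin (B2m). The peptides are cut by the proteasome, carried into the endoplasmic reticulum by the transporter made of Tap1 and Tap2, and loaded onto the heavy chain with the help of tapasin (Tapbp). Inflammatory stimuli and interferons exchange the constitutive catalytic subunits of the proteasome for the immunoproteasome subunits Psmb8, Psmb9 and Psmb10 and raise the proteasome activator PA28, of which Psme1 is a subunit. Macrophages are known to raise this pathway on activation.

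Of the 10 genes, 7 lie on mouse chromosome 17 (GRCm38, GENCODE gene models), in and beside the MHC. Psmb9 (chr17:34181987-34187764, minus strand), Tap1 (chr17:34187553-34197225, plus strand), Psmb8 (chr17:34197721-34201454, plus strand) and Tap2 (chr17:34203527-34216321, plus strand) follow each other directly. Psmb9 and Tap1 point away from each other and their models overlap by 212 exon bases, while 495 bases separate Tap1 from Psmb8 and 2072 bases separate Psmb8 from Tap2. Tapbp (chr17:33915899-33929292, plus strand) and H2-K1 (chr17:33996017-34000347, minus strand) lie before this cluster, and H2-D1 (chr17:35262730-35267499, plus strand) lies 1046408 bases beyond Tap2. The other 3 are B2m (chr2:122147686-122153083, plus strand), Psmb10 (chr8:105935735-105938444, minus strand) and Psme1 (chr14:55578123-55581529, plus strand).

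The promoters of the heavy chain genes, the light chain, the transporter and Psmb8 are shown because these genes responded to different degrees below. Each is the 250 bases before the RefSeq transcription start on GRCm38.p6, written 5′ to 3′ on the gene's strand, with capitals marking matches to the motifs named after them.
B2m, chr2:122147437-122147686, plus strand: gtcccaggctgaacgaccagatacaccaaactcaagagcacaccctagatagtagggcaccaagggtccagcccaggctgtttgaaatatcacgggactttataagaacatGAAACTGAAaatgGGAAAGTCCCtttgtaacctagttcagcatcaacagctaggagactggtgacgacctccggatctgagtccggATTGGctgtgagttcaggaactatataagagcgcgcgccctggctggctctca
H2-K1, chr17:34000348-34000597, minus strand: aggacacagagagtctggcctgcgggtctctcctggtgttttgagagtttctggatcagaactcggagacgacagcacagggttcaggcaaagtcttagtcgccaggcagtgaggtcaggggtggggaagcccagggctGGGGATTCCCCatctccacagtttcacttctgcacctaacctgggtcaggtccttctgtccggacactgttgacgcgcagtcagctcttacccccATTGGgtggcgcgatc
H2-D1, chr17:35262844-35263093, plus strand: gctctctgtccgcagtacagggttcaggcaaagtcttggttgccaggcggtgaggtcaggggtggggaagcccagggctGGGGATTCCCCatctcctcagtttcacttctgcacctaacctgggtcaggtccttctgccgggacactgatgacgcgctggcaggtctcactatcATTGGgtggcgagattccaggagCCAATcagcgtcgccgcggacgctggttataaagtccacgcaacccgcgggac
Tap1, chr17:34187306-34187555, plus strand: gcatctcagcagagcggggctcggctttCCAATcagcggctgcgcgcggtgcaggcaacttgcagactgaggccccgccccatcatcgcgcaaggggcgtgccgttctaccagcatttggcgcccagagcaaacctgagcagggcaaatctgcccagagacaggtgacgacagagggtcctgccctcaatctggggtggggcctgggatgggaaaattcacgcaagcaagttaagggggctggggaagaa
Psmb8, chr17:34197945-34198194, plus strand: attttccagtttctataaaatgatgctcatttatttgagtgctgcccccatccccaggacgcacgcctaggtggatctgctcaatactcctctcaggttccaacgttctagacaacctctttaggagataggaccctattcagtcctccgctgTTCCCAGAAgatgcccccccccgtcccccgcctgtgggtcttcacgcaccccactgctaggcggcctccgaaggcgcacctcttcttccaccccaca

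The motifs were searched on both strands in windows from 250 bases before to 50 bases after the start, in the 9 genes with a RefSeq entry in the promoter table and in all 32851 windows of that table. The core of the interferon-stimulated response element (ISRE, GAAANNGAA) was found in B2m and Psme1 and in 8.56% of all windows. Only these letters were searched, so a gene without a match may still hold another form of the element. The stretch tttcacttc, which the H2-K1 and H2-D1 promoters share, does not match them on either strand. The gamma-activated site (GAS, TTCNNNGAA) was found in Psmb8 and in 8.30% of all windows. The kappaB consensus, the site of NF-kappaB, was found in B2m, H2-K1 and H2-D1 and in 4.51% of all windows, and the Y-box-like CCAAT was found in 6 of the 9 genes and in 37.4% of all windows. In B2m the ISRE core spans bases -139 to -131 from the start and the kappaB match -126 to -117, without overlap between them. The kappaB letters of H2-K1 and H2-D1 match at 2 positions shifted by 1 base and on both strands, and the 2 promoters were 91.0% identical over 177 aligned columns. The 250-base windows of Tap1 and Psmb9 share 225 bases, since their starts lie 226 bases apart on opposite strands. Psmb10 held no match to any of the motifs. These are matches of letters and no binding was measured.

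**Figure D1:**
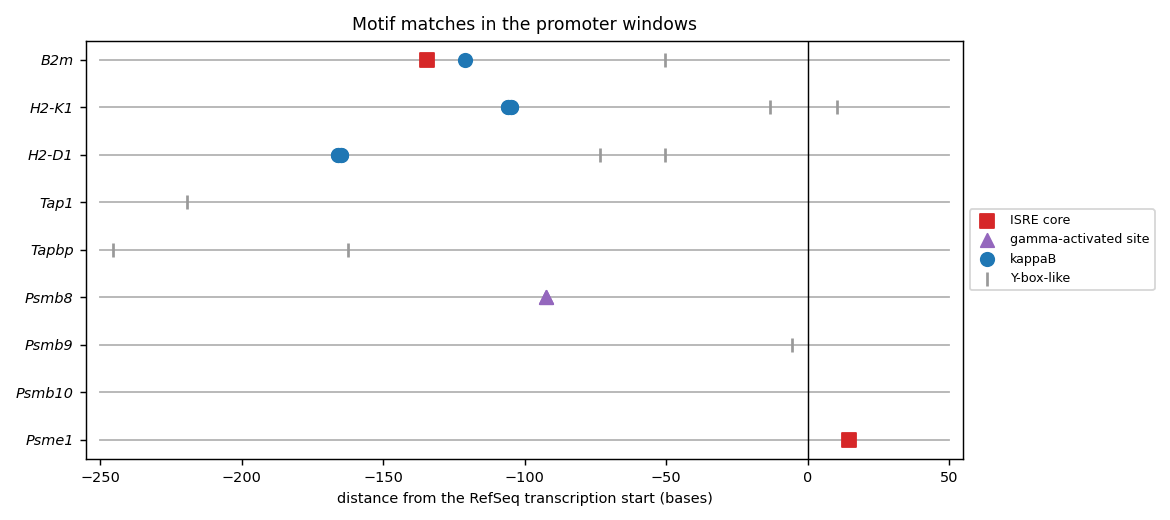
Positions of motif matches in the promoter windows of the 9 genes with a RefSeq entry, as distance in bases from the transcription start (vertical line), with the first start of H2-K1; marks give the centre of each match. The kappaB matches lie in the heavy chain genes and B2m, the ISRE core in B2m and Psme1 and the gamma-activated site in Psmb8.

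The libraries held 41131209 to 77699206 counts each. Defining macrophage markers (Adgre1, Csf1r, Cd68 and 5 others) were present in every group, with a summed level of 5345 to 27338 CPM (counts per 1000000 counts of the library, scaled by TMM over all libraries), whereas the T cell, NK cell and erythroid lists summed to at most 1.60 CPM. With VWF at 16 h the macrophage sum was 18552 to 27338 CPM, above every control (5345 to 16703 CPM) and LPS culture (9801 to 15125 CPM) of that time. At 3.5 h its ranges overlapped. Of the 8 macrophage markers, 1 was called higher and 1 lower with VWF at 3.5 h (746 and 458 of 8200 genes tested). At 16 h 3 were called higher and 1 lower (355 and 324 of 7798). Stromal markers summed to 14.9 to 408 CPM over the cultures, with ranges that overlapped between groups, and neutrophil markers to 4.44 to 36.3 CPM. Of the latter, Camp was called higher with VWF at 16 h (3.65 ± 0.86, adjusted p = 0.00929, edgeR) and S100a9 with LPS at 3.5 h (1.73 ± 0.63, adjusted p = 0.0307). Camp reached the level needed for a test (10 TPM, defined below) only with VWF (at most 10.4 TPM, against 1.95 TPM in controls). It could thus be tested only because it was high there. B cell markers summed to 1.17 to 12.98 CPM, and Cd79b was called lower with LPS at 16 h (-2.23 ± 0.43, adjusted p = 0.00178), beside 989 of 7994 genes tested. Cd79b reached 10 TPM there only in the controls (at most 20.8 TPM, against 3.96 TPM with LPS), so it too was tested only because 1 group was high. Of the dendritic cell markers, Xcr1 moved with the groups, from 0.485 CPM in controls to 13.4 CPM with VWF and 23.1 CPM with LPS at 3.5 h. Its list of 5 summed to 1.23 to 1.80, 14.1 to 20.9 and 21.6 to 27.0 CPM in these groups, and to 0.618 to 1.78, 0.956 to 2.92 and 14.2 to 30.8 CPM at 16 h. Flt3 stayed at or below 0.204 CPM in every culture and Clec9a at or below 1.39 CPM, and the part of any of these cells in the results was not tested. In bulk RNA, fewer cells of a type and less RNA per cell cannot be told apart. Ifng, the gene of interferon gamma, was at 0 in the controls at 3.5 h and reached at most 0.591 CPM in any culture.

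Among the 28 cultures, 2 stood apart from their groups over all genes. In Control 16 h replicate 5, 24.4% of 8867 genes lay more than 1 log2 unit from the median of the other controls, and in LPS 16 h replicate 4 the share was 15.4%. VWF 16 h replicate 4 followed with 3.65%, and the other cultures lay between 0.507% and 3.35%. The 2 cultures had counts for 16690 and 16011 genes, against 17535 to 20593 in the others. In Control 16 h replicate 5, Psmb10 was 1.69 and Tap2 1.62 log2 units above the median of the other controls, whereas Tap1 was at -0.89 and H2-K1 at -0.74 on the same scale. Results at 16 h whose call changed without these cultures are given with and without them.

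**Figure D2:**
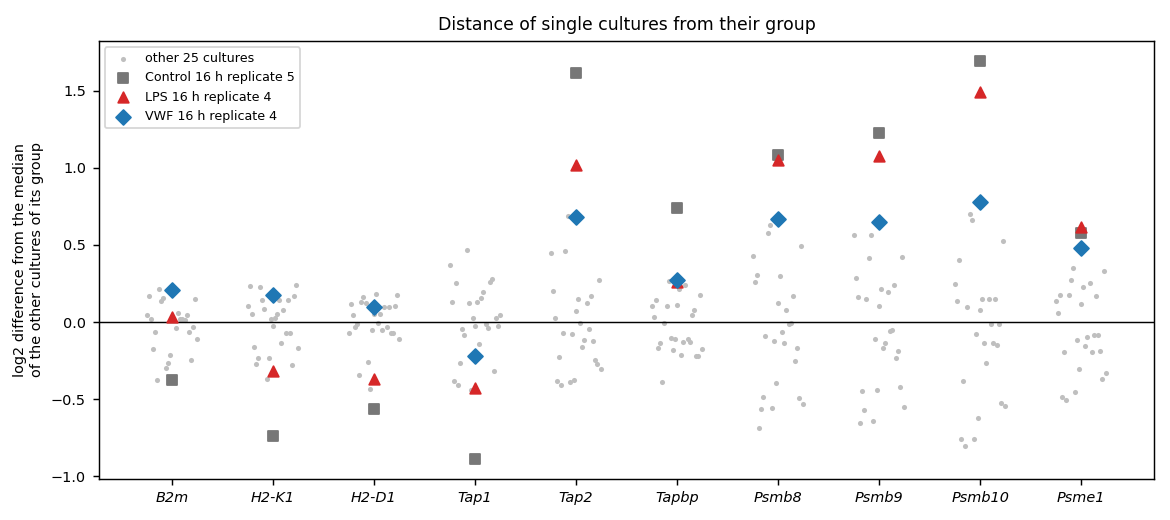
Log2 difference in CPM of every culture from the median of the other cultures of its group, for each gene; the 3 marked cultures are Control 16 h replicate 5 (square), LPS 16 h replicate 4 (triangle) and VWF 16 h replicate 4 (diamond), and grey points are the other 25. Tap2, Tapbp, Psmb8, Psmb9, Psmb10 and Psme1 were above 0 in all 3 marked cultures and Tap1 below 0, with Psmb10 at 1.69 in the control culture.

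Per length, the pathway spanned a wide range of levels in resting macrophages. In controls at 3.5 h, B2m stood at 9830 ± 642 TPM (counts per base of exon, scaled to sum to 1000000 in a library; mean ± SD, n = 5), H2-D1 at 3829 ± 267 TPM and H2-K1 at 1602 ± 156 TPM. Tapbp, Psme1 and Psmb10 followed at 219, 215 and 190 TPM, and the ranges of neighbours in this order overlapped. Psmb8 was at 80.8 TPM, Tap2 at 34.4 TPM and Psmb9 at 32.3 TPM, and the last 2 overlapped. Tap1 was lowest at 14.9 ± 3.35 TPM, below every culture's Psmb9 value. With LPS at 16 h the same 3 genes led, B2m at 20890 ± 2165 TPM, H2-D1 at 5376 ± 1129 TPM and H2-K1 at 4445 ± 868 TPM, of which the last 2 overlapped. Tap1 then stood at 306 ± 72.9 TPM, above Psmb9 (275 TPM) and Tap2 (250 TPM), with ranges that overlapped between neighbours.

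The first comparison asked how VWF changed these transcripts after 3.5 h. A gene was called when its adjusted p was under 0.05 (edgeR quasi-likelihood test, Benjamini-Hochberg adjustment over all genes of at least 10 TPM in a culture of the comparison) and its absolute log2 fold change was above 1. All 10 genes passed the filter in all comparisons, and in every group of the comparisons of 2 groups. VWF raised 5 of the 10, Tap1, Tap2, Tapbp, Psmb9 and Psmb10, while 9.1% of the 8200 genes tested were called higher. By adjusted p alone 9 of 10 were higher, against 22.3% of all genes, and 9 of 10 did not overlap with the controls, against 21.7%. The median log2 fold change over the 10 was 1.16, beside -0.01 over all genes tested.

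Tap1 and Tap2, the paired subunits of the peptide transporter, rose with VWF at 3.5 h. Tap1 was at 29.4, 25.6, 20.2, 27.2 and 19.9 CPM in the 5 control cultures and at 161, 186, 183, 254 and 201 CPM in the 5 VWF cultures. Every VWF culture was thus above every control, a log2 fold change of 2.92 ± 0.16 (SE; 7.55-fold, adjusted p = 7.14e-08), which ranked 174 among the 8200 genes tested. Tap2 was at 50.2, 42.3, 39.0, 31.1 and 34.7 CPM in controls and 96.8, 114, 145, 170 and 97.8 CPM with VWF. Its groups did not overlap either, with a log2 fold change of 1.56 ± 0.18 (2.95-fold, adjusted p = 2.90e-05). Tapbp, whose product bridges the transporter and the empty heavy chain, went from 221 to 260 CPM in controls to 527 to 788 CPM with VWF, a log2 fold change of 1.38 ± 0.10 (adjusted p = 4.95e-07).

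**Figure D3:**
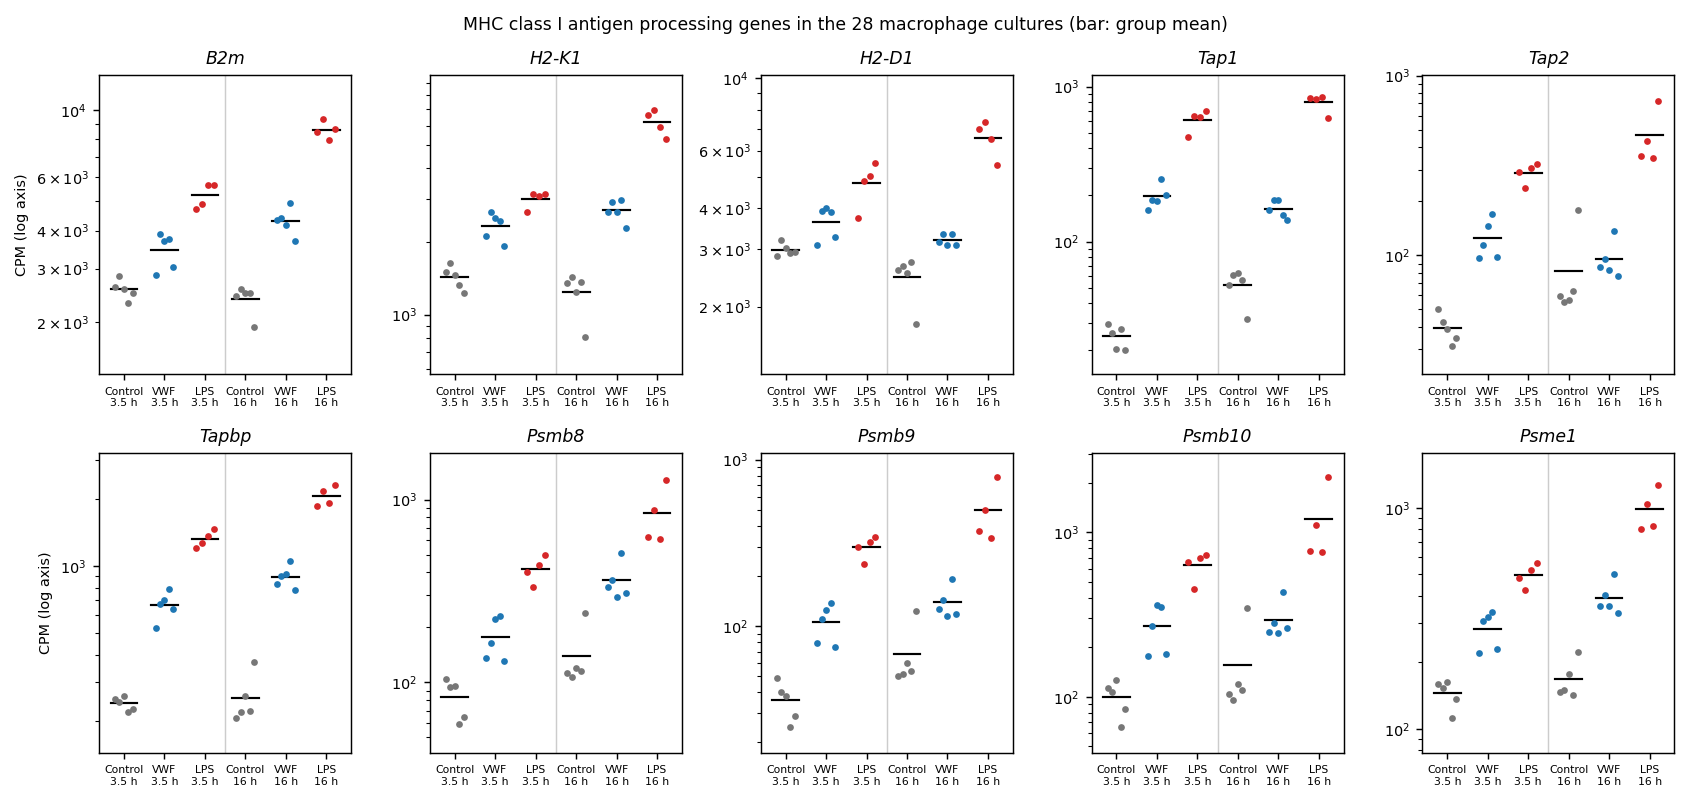
CPM (log axis) of the 10 genes in each of the 28 cultures, with control in grey, VWF in blue and LPS in red at 3.5 h (left of the line) and 16 h (right); bars are group means, with n = 5, 5 and 4. At 3.5 h the 5 VWF values of Tap1 lie between 161 and 254 CPM, above all controls, and the 4 LPS values between 476 and 694 CPM.

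The catalytic immunoproteasome subunits were also higher with VWF at 3.5 h. Psmb10 was at 113, 108, 126, 65.4 and 84.7 CPM in controls and 177, 271, 362, 351 and 182 CPM with VWF, without overlap (log2 fold change 1.34 ± 0.24, adjusted p = 0.00065). Psmb9 went from 24.8 to 48.7 CPM in controls to 75.0 to 138 CPM with VWF (log2 fold change 1.45 ± 0.22, adjusted p = 0.000232). Psmb8 passed the adjusted p but was just under the fold threshold, with a log2 fold change of 0.99 ± 0.21 (adjusted p = 0.00239), and so was Psme1 at 0.88 ± 0.14 (adjusted p = 0.000349). Psmb8 was above 1 (1.02 to 1.10), and so called, without Control 3.5 h replicate 1, 2 or 3 or without VWF 3.5 h replicate 1, 2 or 5.

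The heavy and light chains, the most abundant members, moved least at 3.5 h. H2-K1 went from 1227 to 1632 CPM in controls to 1911 to 2646 CPM with VWF, a log2 fold change of 0.61 ± 0.11 (adjusted p = 0.000903). B2m, at 2302 to 2838 CPM in controls and 2866 to 3892 CPM with VWF, had a log2 fold change of 0.34 ± 0.10 (adjusted p = 0.0193). H2-D1 was at 2852, 3189, 3030, 2919 and 2949 CPM in controls and at 3080, 3911, 3996, 3906 and 3272 CPM with VWF. Its groups overlapped, and its log2 fold change of 0.19 (95% interval 0.0064 to 0.38) did not pass (adjusted p = 0.0907). Scaled by library size in place of TMM, this value was -0.02, with the median of all genes at -0.22, and B2m at 0.12 no longer passed (adjusted p = 0.265). H2-D1 passed the adjusted p alone with DESeq2 (0.0265) and without VWF 3.5 h replicate 1 (0.0398).

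After 16 h VWF raised 5 of the 10, Tapbp, Tap1, Psmb8, Psme1 and H2-K1, while 4.55% of the 7798 genes tested were called higher. By adjusted p alone 7 were higher, against 13.1% of all genes, and 7 did not overlap with the controls, against 17.6%. The median log2 fold change was 0.97, beside -0.03 over all genes. Without Control 16 h replicate 5, 6 of 10 were called, since Psmb9 and Psmb10 were then called and H2-K1 was not.

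Tapbp showed the highest log2 fold change of the members with VWF at 16 h, from 207, 220, 261, 222 and 368 CPM in controls to 832, 902, 916, 1049 and 779 CPM. Its log2 fold change was 1.70 ± 0.17 (3.24-fold, adjusted p = 3.89e-05). Tap1 was at 52.9, 60.7, 62.4, 56.2 and 31.6 CPM in controls and 161, 185, 187, 148 and 138 CPM with VWF, a log2 fold change of 1.52 ± 0.17 (adjusted p = 9.09e-05). H2-K1, at 812 to 1427 CPM in controls and 2285 to 2977 CPM with VWF, had a log2 fold change of 1.01 ± 0.16 (adjusted p = 0.000645), and it was 0.90 without Control 16 h replicate 5, 0.98 without VWF 16 h replicate 2 and 0.97 without VWF 16 h replicate 4. B2m passed below the fold threshold, at 0.74 ± 0.12 (adjusted p = 0.000662). H2-D1 was at 1775 to 2746 CPM in controls and 3083 to 3338 CPM with VWF, and its log2 fold change of 0.26 (95% interval -0.0044 to 0.53) did not pass (adjusted p = 0.143) although the groups did not overlap; with DESeq2 its adjusted p was 0.0488.

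Tap2, Psmb9 and Psmb10 at 16 h depended on the control culture that stood apart. Tap2 was at 59.4, 54.8, 56.6, 63.1 and 178 CPM in controls and 86.5, 95.3, 83.3, 136 and 76.6 CPM with VWF. Of the 5 controls, 4 were below every VWF culture and replicate 5 was above all of them. The log2 fold change was 0.10 (95% interval -0.68 to 0.88, adjusted p = 0.877), and 0.61 (adjusted p = 0.0114) without replicate 5. Psmb10 was at 104, 95.5, 119, 110 and 347 CPM in controls and 246, 281, 244, 433 and 260 CPM with VWF, where again replicate 5 alone overlapped. Its log2 fold change of 0.80 ± 0.38 (adjusted p = 0.153) became 1.35 (adjusted p = 0.000161) without that culture. Psmb9 likewise had a log2 fold change of 0.93 ± 0.27 (adjusted p = 0.0284), and 1.27 (adjusted p = 9.04e-05) without it. Without VWF 16 h replicate 3, Psmb9 was also above the threshold, at 1.00. It did not pass when any other control culture, VWF 16 h replicate 2 or VWF 16 h replicate 4 was left out (6 of 10 cultures, adjusted p = 0.0599 to 0.0702). Psmb8 rose from 107 to 241 CPM in controls to 292 to 512 CPM with VWF, a log2 fold change of 1.27 ± 0.26 (adjusted p = 0.00433), and Psme1 had 1.11 ± 0.16 (adjusted p = 0.000404). Both were called with and without Control 16 h replicate 5, at 1.57 and 1.24 without it.

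LPS, the ligand of Toll-like receptor 4 and the study's positive stimulus, raised 8 of the 10 at 3.5 h, while 12.8% of the 8190 genes tested were called higher. By adjusted p alone all 10 were higher, against 31.8% of all genes, and all 10 did not overlap with the controls, against 27.2%. The median log2 fold change was 2.34, beside -0.02 over all genes. Tap1 again led the members, at 476, 645, 633 and 694 CPM in the 4 LPS cultures, a log2 fold change of 4.59 ± 0.17 (24.1-fold, adjusted p = 2.27e-09). Psmb9 followed at 3.00 ± 0.21 and Tap2 at 2.81 ± 0.16, with Tap2 at 290, 236, 306 and 322 CPM. Psmb10 had 2.62, Tapbp 2.42, Psmb8 2.27 and Psme1 1.74 on the log2 scale, and H2-K1 stood just above the threshold at 1.02 ± 0.12 (adjusted p = 1.48e-05). B2m at 0.98 ± 0.11 and H2-D1 at 0.63 ± 0.11 passed the adjusted p only, with H2-D1 at 3726, 4854, 5032 and 5515 CPM. Values near the threshold crossed it when a culture was left out. H2-K1 was at 0.98 without Control 3.5 h replicate 5 and 0.99 without LPS 3.5 h replicate 2, and B2m at 1.01, 1.03 and 1.02 without Control 3.5 h replicate 1 or 2 or LPS 3.5 h replicate 1. LPS and VWF were set against the same controls at each time.

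At 16 h LPS raised all 10, while 15.3% of the 7994 genes tested were called higher. All 10 also passed the adjusted p alone, against 27.3% of all genes, and all 10 did not overlap with the controls, against 25.7%. The median log2 fold change was 2.54, beside -0.03 over all genes. The values ran from 1.38 ± 0.15 for H2-D1 to 3.87 ± 0.20 for Tap1. B2m reached 8428, 9340, 7985 and 8628 CPM, against 2427, 2563, 2493, 2494 and 1922 CPM in controls (log2 fold change 1.82 ± 0.12, adjusted p = 1.09e-06). H2-K1 reached 6617, 6963, 5900 and 5313 CPM (log2 fold change 2.29 ± 0.17, adjusted p = 3.02e-06). Psmb10 was at 771, 1108, 760 and 2170 CPM, and its log2 fold change was 2.91 ± 0.52 (adjusted p = 0.00102). Without Control 16 h replicate 5 and LPS 16 h replicate 4 all 10 were still called, with Psmb10 at 3.00 and Tap2 at 2.67 against 2.45 ± 0.44 with all cultures.

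**Figure D4:**
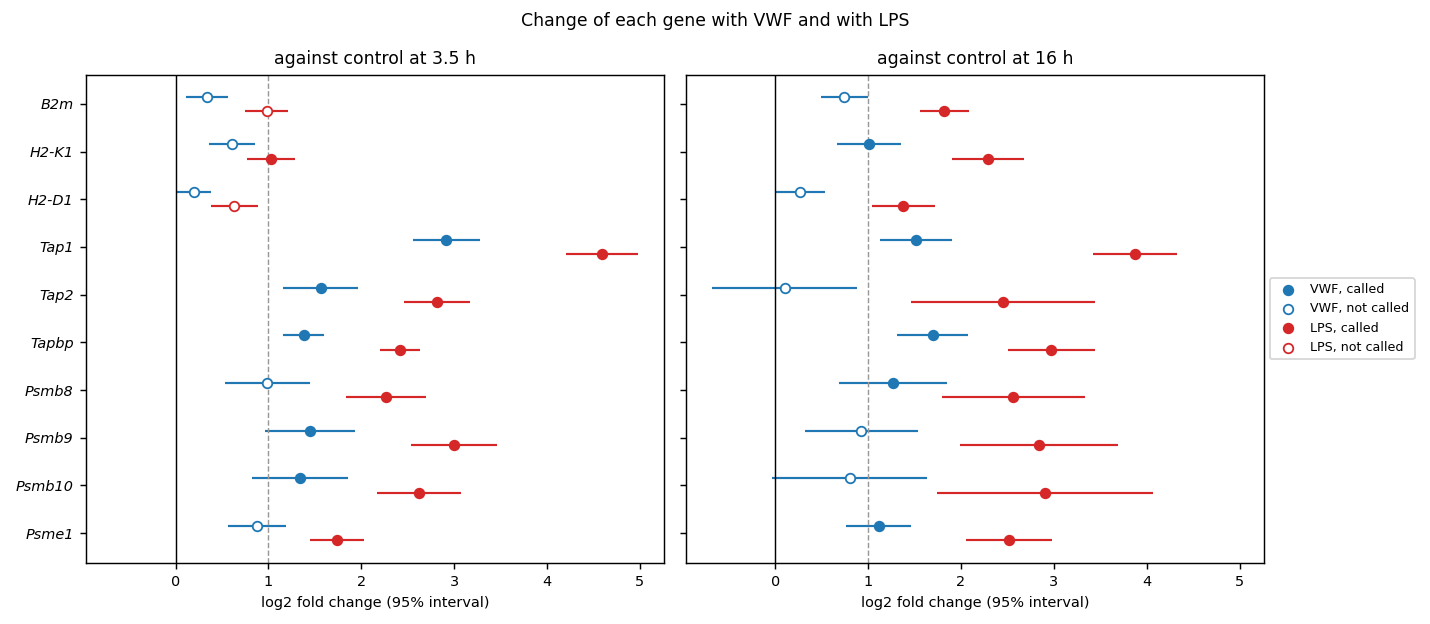
Log2 fold change against control with its 95% interval for each gene at 3.5 h (left) and 16 h (right), for VWF (blue) and LPS (red); filled points were called and open points were not, and the dashed line marks a log2 fold change of 1. Tap1 has the highest point of the members with both stimuli at 3.5 h, at 2.92 and 4.59, and Tap2 with VWF at 16 h is at 0.10 with an interval across 0.

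Set against each other directly, VWF cultures had less of these transcripts than LPS cultures. At 3.5 h 6 of 10 were called lower (Tap1, Psmb9, Psmb10, Psmb8, Tap2 and Tapbp), beside 6.71% of the 7500 genes tested. All 10 were lower by adjusted p alone, against 24% of all genes, and 9 did not overlap, against 15.4%. The differences of VWF minus LPS ran from -1.65 ± 0.14 for Tap1 (adjusted p = 5.54e-06) to -0.39 ± 0.11 for H2-K1 (adjusted p = 0.014). Tapbp, at -1.01 ± 0.11, was at -0.97 without VWF 3.5 h replicate 1 or LPS 3.5 h replicate 4, and without the latter H2-D1 no longer passed (-0.35, adjusted p = 0.0619). At 16 h all 10 were called lower, beside 14.5% of the 7574 genes tested. All 10 were lower by adjusted p alone, against 31%, and did not overlap, against 24.9%. Here Tap2 (-2.31 ± 0.26) and Tap1 (-2.30 ± 0.13) differed most and B2m (-1.02 ± 0.12, adjusted p = 3.62e-05) least. With the replicate number as a block, which treated same-numbered cultures as pairs, 9 of 10 were called and B2m was at -0.97. B2m was also below the fold threshold without VWF 16 h replicate 3 (-0.998) or 5 (-0.96) or LPS 16 h replicate 2 (-0.99), and Psmb8 without LPS 16 h replicate 4 (-0.98, against -1.25 ± 0.26 with all cultures).

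The size of these differences depended on the scaling, in which TMM factors were 0.745 to 0.849 in LPS cultures and 1.04 to 1.24 in controls. Scaled by library size, the median of all genes moved by 0.30 at 3.5 h and 0.46 at 16 h in VWF against LPS, and 2 and 4 of the 10 were then called lower. All 10 values kept their sign, but H2-K1 (-0.09, adjusted p = 0.441) and H2-D1 (-0.11, adjusted p = 0.362) no longer passed at 3.5 h. In the comparisons with controls the same change moved the median of all genes by -0.21 (VWF) and -0.54 (LPS) at 3.5 h and by -0.06 and -0.56 at 16 h, and 5, 7, 4 and 9 of the 10 were called; H2-D1 with LPS at 3.5 h was then at 0.092 (adjusted p = 0.412).

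Whether the response changed with time was tested as the difference between the effect at 16 h and that at 3.5 h, each against its own controls. For VWF, Tap1 (-1.36 ± 0.23, adjusted p = 0.000118) and Tap2 (-1.44 ± 0.43, adjusted p = 0.0124) were called lower at 16 h, 2 of 10, beside 7.77% of the 8660 genes tested and 16.6% by adjusted p alone. Mean Tap1 CPM with VWF was 197 at 3.5 h and 164 at 16 h, while the control mean went from 24.5 to 52.7 CPM. Without Control 16 h replicate 5, Tap1 alone was called, and Tap2 was at -0.93 (adjusted p = 0.0066). B2m was the only member with a greater VWF effect at 16 h by adjusted p alone (0.44 ± 0.15, adjusted p = 0.0259), against 15.9% of all genes. It did not pass without Control 3.5 h replicate 2, VWF 3.5 h replicate 1 or 5 or VWF 16 h replicate 1 or 4 (adjusted p = 0.05 to 0.0613), and Tapbp passed (0.52, adjusted p = 0.00625) without Control 16 h replicate 5.

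For LPS, the effect on H2-K1 grew by 1.28 ± 0.19 (adjusted p = 3.47e-05), the 1 member of 10 called higher, beside 13.5% of the 8748 genes tested. By adjusted p alone 5 of 10 grew, against 25% of all genes, namely H2-K1, B2m (0.85 ± 0.14), Psme1 (0.79 ± 0.24), H2-D1 (0.76 ± 0.18) and Tapbp (0.57 ± 0.22). The LPS effect on Tap1 was smaller at 16 h, with a difference between the effects of -0.70 ± 0.25 (adjusted p = 0.026), against 23.8% of all genes. Its level with LPS was 476 to 694 CPM at 3.5 h and 630 to 855 CPM at 16 h, while the control mean went from 24.5 to 52.7 CPM. Tapbp did not pass when any of 12 of the 18 cultures was left out (adjusted p = 0.0539 to 0.068), and was at 0.76 (adjusted p = 0.000145) without Control 16 h replicate 5. Tap1 did not pass without LPS 3.5 h replicate 2 (0.054) or 4 (0.0554). H2-K1 with LPS stood at 2660 to 3137 CPM at 3.5 h and 5313 to 6963 CPM at 16 h, without overlap, and both heavy chains and the light chain were among the 5.

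The immunoproteasome subunits were also set against the constitutive subunits they replace, as ratios of TPM in each culture. Psmb8 over Psmb5 was 0.191 ± 0.0143 in controls, 0.324 ± 0.0290 with VWF and 0.632 ± 0.0568 with LPS at 3.5 h (SD), and 0.176, 0.323 and 0.625 at 16 h. Psmb9 over Psmb6 was 0.0795 ± 0.0126, 0.141 ± 0.0121 and 0.303 ± 0.0126 at 3.5 h, and 0.0940, 0.198 and 0.297 at 16 h. For both pairs the groups did not overlap at either time, Control 16 h replicate 5 included. Psmb10 over Psmb7 was 2.92 ± 0.466, 6.18 ± 1.17 and 13.1 ± 2.39 at 3.5 h. At 16 h its control mean was 5.50 ± 5.73, with single cultures between 2.73 and 15.7, so that it overlapped with VWF (5.36 ± 1.38, 4.38 to 7.77). Without Control 16 h replicate 5 the control mean was 2.94 ± 0.282, with the other 4 cultures at 2.73 to 3.34, below every VWF culture. With LPS it was 17.9 ± 8.52 (12.5 to 30.4), and 13.7 ± 1.92 without LPS 16 h replicate 4. The counterparts themselves moved less than Psmb8, Psmb9 and Psmb10 in the 3.5 h VWF comparison. Psmb5 had a log2 fold change of 0.23 (adjusted p = 0.448) and Psmb7 of 0.25 (adjusted p = 0.119), and Psmb6 passed the adjusted p at 0.63 ± 0.20 (adjusted p = 0.0272). Psme2, the partner of Psme1 in PA28, rose by 1.80 ± 0.22 (adjusted p = 3.71e-05). The denominators could also move with LPS. Of the list of 6 that holds the 3 counterparts and Psme2, 5 were higher and 1 lower by adjusted p alone with LPS at 3.5 h. Over all genes these were 2606 and 2778 of 8190. At 16 h 3 were higher and 0 lower, beside 2185 and 2108 of 7994 genes.

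**Figure D5:**
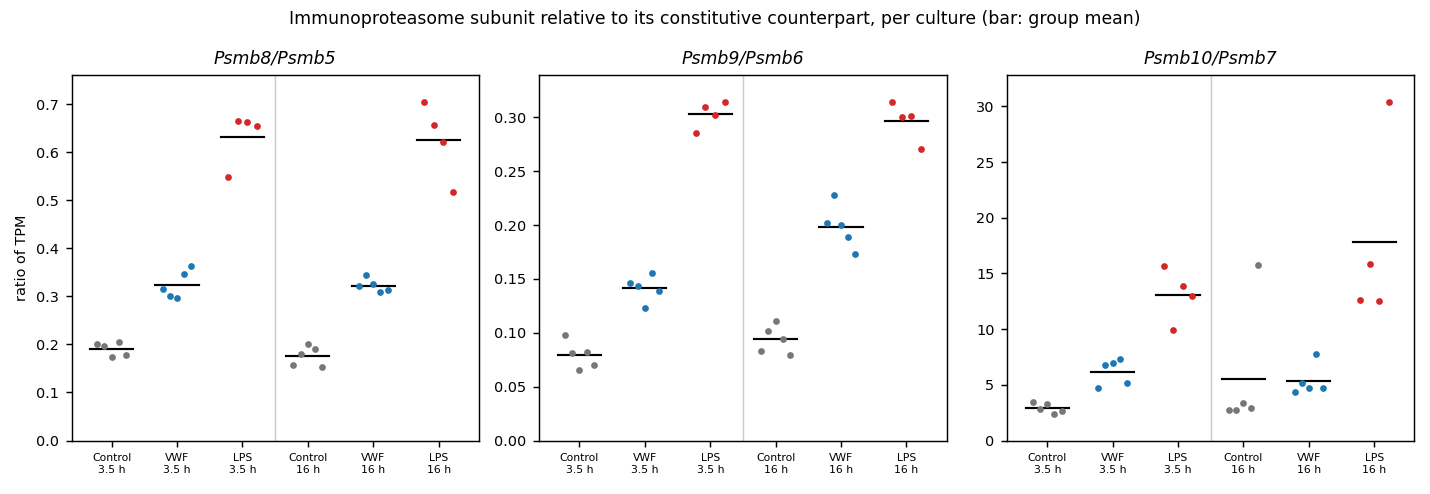
Ratio of TPM of each immunoproteasome subunit to its constitutive counterpart in each culture (linear axis from 0; control grey, VWF blue, LPS red; bars are group means). Psmb8 over Psmb5 and Psmb9 over Psmb6 step up from control to VWF to LPS without overlap at both times, while Psmb10 over Psmb7 at 16 h has 1 control culture at 15.7.

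Other genes of the pathway were taken from lists and are given by their counts. Of 6 further proteasome genes, 1 was called higher with VWF at 3.5 h (Psme2) and 1 at 16 h, against 2 and 2 with LPS. Over all genes tested, 9.1% and 4.55% were called higher with VWF at 3.5 h and 16 h and 12.8% and 15.3% with LPS, and the counts of the lists below stand beside these shares. Of 6 aminopeptidases and related peptidases that trim peptides, 1 was higher by adjusted p alone at each time with VWF (22.3% and 13.1% of all genes), while 2 and 1 were called higher with LPS. Lnpep, the insulin-regulated aminopeptidase, was at 0.36 ± 0.13 with VWF (adjusted p = 0.0449) and 1.28 ± 0.11 with LPS at 3.5 h. Erap1, which trims peptides in the endoplasmic reticulum, was at 0.26 (adjusted p = 0.16) with VWF at 3.5 h. Tpp2, a cytosolic peptidase, was at 0.25 (adjusted p = 0.136).

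Of 6 loading complex and chaperone genes, Tapbpl, a tapasin homologue that edits peptides, was the one called with VWF at 3.5 h (1.42 ± 0.10, adjusted p = 3.27e-07), and 4 of the 6 were higher by adjusted p alone at 16 h, against 13.1% of all genes. With LPS 1 was called higher at each time, and Uggt1, a glycoprotein glucosyltransferase, was called lower at 16 h (-1.52 ± 0.13, adjusted p = 8.99e-06) after -0.39 ± 0.12 at 3.5 h (adjusted p = 0.0141). Over all genes tested with LPS at 16 h, 989 of 7994 were called lower. Uggt1 was chosen here after its values were seen and passed the filter at 16 h through the controls alone. Hspa5, the chaperone BiP, had 0.57 ± 0.10 (adjusted p = 0.000436) with VWF at 3.5 h. Canx, calnexin, had 0.13 (adjusted p = 0.22) with VWF at 3.5 h and passed with VWF at 16 h at 0.30 ± 0.07 (adjusted p = 0.013).

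Of 14 other class I heavy chains, 10 passed the filter with VWF and 5 of them were called higher at 3.5 h and 7 at 16 h; with LPS 9 of 10 and 9 of 9 were. H2-T10 led at 3.5 h with 2.20 ± 0.15 (adjusted p = 2.72e-07), followed by H2-Q6 at 2.19 ± 0.22 and H2-Q7 at 1.96 ± 0.25. H2-T10 passed the 10 TPM filter through the stimulated group alone in all 4 comparisons with controls (at most 6.75 TPM in controls and 23.8 TPM with VWF at 3.5 h), so it could be tested only because it was high there, and it is 1 of the genes called in each of these counts. H2-Q6 went from 7.79 CPM in controls to 37.9 CPM with VWF and 70.3 CPM with LPS at 3.5 h, and stood at 519 CPM with LPS at 16 h. These paralogs share sequence, and how reads that match several genes were counted is not given in the sources used here, so their single values are uncertain.

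Of 10 regulators of class I genes, 8 passed the filter and 4 were called higher with VWF at 3.5 h and 2 at 16 h, against 7 and 5 with LPS. By adjusted p alone 2 were lower with VWF and 1 with LPS at 3.5 h, beside 1744 of 8200 and 2778 of 8190 genes tested. None of the regulators was called lower in these comparisons. Irf1, an interferon-induced activator of these promoters, was at 52.9 ± 16.2 CPM in controls, 453 ± 83.0 CPM with VWF and 1829 ± 119 CPM with LPS at 3.5 h. Its log2 fold change with VWF was 3.00 ± 0.23 (adjusted p = 8.31e-07), and 0.56 ± 0.11 (adjusted p = 0.00233) at 16 h. Nlrc5, the class I transactivator, had 0.52 ± 0.29 with VWF at 3.5 h (adjusted p = 0.18) and was called at 16 h with 1.23 ± 0.23 (adjusted p = 0.00252). With LPS it was called at both times, at 2.73 ± 0.27 and 3.43 ± 0.27. At 16 h Nlrc5 passed the filter through the stimulated cultures alone, with at most 5.78 TPM in controls. Nfkb1, a subunit of NF-kappaB, was called with VWF at 3.5 h, at 2.25 ± 0.15, and had -0.04 (adjusted p = 0.87) with VWF at 16 h.

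The 10 genes varied together over the 28 cultures, which share their group means. Pearson's r of each with the mean z-score of the other 9 ran from 0.849 for H2-D1 to 0.987 for Psme1, and r between pairs from 0.718 for H2-D1 with Psmb8 to 0.987 for Psmb9 with Psmb10. Of 8857 other genes, Pla2g16 (r = 0.985), Psme2b (0.984), H2-T22 (0.984), Ddx60 (0.980) and Psma3 (0.980) came closest to the mean z-score of all 10. These correlations describe the 28 libraries and carry no test.

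Some reads of the members could come from other genes. Of the 100-base windows in their exons, 14.8% in Tapbp, 8.05% in Psmb8, 4.99% in Tap2, 3.59% in H2-D1, 0.957% in H2-K1 and 0.329% in Psme1 also occur in another gene model, and 0 in the other 4. That search did not compare members with each other on opposite strands. Tap1 and Psmb9, for which it gave 0, overlap there by 212 exon bases (3.87% and 5.79% of their exon lengths). On the same strand, Zbtb22 overlaps Tapbp by 149 exon bases (4.11%). Models on the opposite strand other than those of coding genes overlap 24.9% of the exon bases of Tapbp, 14.7% of Psmb8 and, in 2 models, 14.1% and 4.36% of Tap2, and whether counting used the strand is not given in the sources used here.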

How the data were processed

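The authors mapped paired-end reads to mouse GRCm38 (mm10) with STAR and deposited raw counts per gene for the 28 cultures. For the STAR version, annotation, strand setting and multi-mapping reads, the sources used here give nothing. Symbols, gene models and exon lengths came from GENCODE on GRCm38, and the 10 members were each found once. The members, lists and tests were chosen with earlier results of these data known.

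From the counts, CPM were computed with TMM factors over all 28 libraries and TPM from exon lengths, of which 54495 of 54532 genes had one. Comparisons of 2 groups used edgeR 4.0.16 (R 4.3.3; quasi-likelihood with robust dispersion, TMM, only the groups compared, Benjamini-Hochberg over all genes tested). Changes of an effect with time were interaction terms over 4 groups. Genes under 10 TPM in all cultures of a comparison were left out, after the study's rule, and calls used its thresholds (log2 fold change beyond 1 in either direction, adjusted p under 0.05). The study's DESeq2 (1.42.0) test is an alternative here. Log2 CPM used a prior count of 2. Intervals are 95%. Totals of 41131209 to 77699206 counts per library put members at far above the counting limit, and intervals cover the spread between cultures. The code was tested on simulated counts.

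Other alternatives were median-of-ratios and library size scaling, 2 other filters, all groups in 1 fit, the replicate number as a block, other thresholds, each culture left out in turn (94 fits) and, chosen after seeing the data, voom with sample weights (limma 3.58.1) and leaving out both cultures with few genes detected. The labels give the same replicate numbers in every group. Deviations of same-numbered cultures from their group means correlated at 0.200 to 0.812 in all 4 pairs of VWF and LPS at 16 h. These positive values were read as possible pairing and do not settle it. The group means include both replicate 4 cultures, which stood furthest apart in their groups. Replicate 2, at 0.200, did not correlate best with its own number. In the other comparisons at least 1 pair correlated below 0.1. Over 52 pairs within groups the lowest chi-square per degree of freedom was 17.1, so no library was counted as a repeat of another. The named genes were the members, Psmb5, Psmb6, Psmb7, Psme2, Nlrc5, Irf1, up to 3 genes with the largest absolute log2 fold change with VWF at 3.5 h in each other list, and the 5 genes most like the members. Promoters are RefSeq's, and Tap2 is named only.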

Additional observations from a re-analysis of the deposited data

Results flagged for a closer look

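Among 60 sets of cultures (10 genes in 6 groups), 9 held a culture whose gap to the nearest other was a large part of the group's range (Dixon's 95% limit), where chance gives about 1 in 20. Of these, 6 fell on Control 16 h replicate 5, in CPM. It was lowest for B2m (1922) and H2-D1 (1775) and highest for Tap2 (178), Psmb8 (241), Psmb9 (123) and Psmb10 (347). The others were Tap1 in LPS 16 h replicate 4 (630 CPM, the lowest), Psmb10 in VWF 16 h replicate 4 (433 CPM, the highest) and H2-K1 in LPS 3.5 h replicate 1 (2660 CPM, the lowest).

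The effects of 16 h and 3.5 h differed by the interaction test, on the log2 scale and with edgeR's adjusted p, for 3 members with VWF: B2m (0.44, adjusted p = 0.0259), Tap1 (-1.36, adjusted p = 0.000118) and Tap2 (-1.44, adjusted p = 0.0124). With LPS they differed for 6: B2m (0.85, adjusted p = 6.84e-05), H2-K1 (1.28, adjusted p = 3.47e-05), H2-D1 (0.76, adjusted p = 0.0017), Tap1 (-0.70, adjusted p = 0.026), Tapbp (0.57, adjusted p = 0.0376) and Psme1 (0.79, adjusted p = 0.0117). By the same rule the effects differed for 2819 of all 8660 genes tested with VWF (15.9% higher and 16.6% lower). With LPS they differed for 4267 of 8748 (25% higher and 23.8% lower). The causes were not tested.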

How the results depend on the processing

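Of 1760 values of single members under the alternatives, 1659 kept their direction and their side of the thresholds, 52 lost a call, 37 gained one and 12 changed sign. DESeq2, median-of-ratios size factors and all groups in 1 fit changed no call among the 80 main values, and DESeq2 moved the adjusted p of H2-D1 with VWF under 0.05 at both times.

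Counts of members called moved by over 1.5 times as follows. Without the fold threshold they were 9 (from 5) for VWF at 3.5 h, 10 (from 6) for VWF against LPS at 3.5 h and 6 (from 1) for the change of the LPS effect with time. Tested against a fold of 2, they were 3 and 2 for VWF at 3.5 h and 16 h, 2 and 4 for VWF against LPS, and 0 for both changes with time (edgeR), a stricter test by construction. Scaled by library size, 2 and 4 were called for VWF against LPS at 3.5 h and 16 h. For the change of the VWF effect, 1 of 2 was called with the replicate block, with voom and, among cultures left out (range 1 to 2), without Control 16 h replicate 5.

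Values that changed sign were all of members not called. They were H2-D1 with VWF at 3.5 h under library size scaling (-0.024), H2-D1 in the VWF effect with voom (-0.0057), Tap2 with VWF at 16 h without Control 16 h replicate 2 or 3 or VWF replicate 4 (range over cultures left out -0.064 to 0.61), and Psmb10 in the VWF effect without Control 16 h replicate 5 (range -0.75 to 0.030). In the LPS effect they were Tap2 with the replicate block (0.13) and without Control 16 h replicate 5 (range -0.68 to 0.17), Psmb9 with the block (0.17), without that culture and without LPS 16 h replicate 3 (range -0.48 to 0.21), and Psmb10 without LPS 16 h replicate 4 (range -0.19 to 0.86). The cause was not tested.

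Whether cultures were paired is unresolved in every comparison. In those other than VWF against LPS at 16 h, same-numbered cultures correlated at -0.692 to 0.734. There the block changed 5 calls or signs of members, the 2 signs above and 3 calls: Psmb9 was called with VWF at 16 h (1.00, adjusted p = 0.0499), H2-K1 was not called with LPS at 3.5 h (0.97) and Tap2 was not in the VWF effect (-1.25, adjusted p = 0.0525). Every sample correlated best with its own number in none of the comparisons.

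Over all genes, counts of calls moved by over 1.5 times under filterByExpr, no filter and no fold threshold and, except with VWF or LPS against controls at 3.5 h, when tested against a fold of 2. For VWF at 3.5 h, 1204 became 2099, 2366 and 3576; at 16 h 679 became 1362, 1378, 2163 and 354. For LPS, 2010 became 3917, 4542 and 5384, and 2210 became 4087, 4224, 4293 and 1470. For VWF against LPS, 856 became 1776, 1942, 3768 and 428, and 1932 became 3897, 4242, 4586 and 1270. For the changes with time, 1166 (VWF) became 1972, 1904, 2819 and 600, and 2301 (LPS) became 3790, 3613, 4267 and 1106. Library size scaling moved the share called higher from 62.0% to 48.3% (VWF, 3.5 h), 52.1% to 24.1% and 55.2% to 25.2% (LPS, 3.5 h and 16 h), and 41.2% to 69.8% and 43.3% to 72.1% (VWF against LPS).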

Other observations

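At 16 h, while all 10 members were lower with VWF than with LPS, 4 of the 6 loading complex and chaperone genes were higher by adjusted p alone (edgeR), against 29.5% of all genes tested. They were Calr, calreticulin (log2 difference VWF minus LPS 0.99 ± 0.09, adjusted p = 1.05e-05), Pdia3, the disulphide isomerase ERp57 (0.56 ± 0.10, adjusted p = 0.000679), Canx (0.45 ± 0.09, adjusted p = 0.00132) and Uggt1, the glycoprotein glucosyltransferase (1.63 ± 0.14, adjusted p = 6.55e-06), which was lower with LPS than in controls and passed the filter here through the VWF cultures alone. Tapbpl was lower (-2.47 ± 0.25, adjusted p = 1.99e-05) and Hspa5 was at 0.01 (adjusted p = 0.933). Against controls at 16 h, Calr had 0.94 ± 0.08 with VWF (adjusted p = 8.49e-06) and 0.00135 with LPS (adjusted p = 0.992).

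Among the regulators, Irf8, an interferon regulatory factor of the myeloid lineage, was lower than in controls with VWF at 3.5 h by adjusted p alone (-0.57 ± 0.14, adjusted p = 0.00694) and higher with LPS (2.72 ± 0.16, adjusted p = 8.19e-08). Its groups overlapped in the first comparison. Among the other heavy chains, Cd1d1, which presents lipids, was at 14.5 ± 0.989 TPM with VWF and 5.52 ± 0.957 TPM with LPS at 16 h and passed the filter through the VWF cultures alone, and H2-T24 was called higher than in controls with VWF at 16 h (3.34 ± 0.48, adjusted p = 0.000416). The genes and comparisons given here were picked after their values were seen.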
